A study of Mus musculus with 6 samples.

Results

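Arl6ip1 and 7 other genes for proteins that shape the endoplasmic reticulum (ER) were followed in a mouse dendritic cell line and its PD-L1 knockout derivative. They were the rows of a gene count table with the symbols Arl6ip1, Rtn1, Rtn3, Rtn4, Reep3, Reep5, Atl2 and Atl3, 8 of 31205 genes. The set was chosen by name with the KO against Control counts of these same libraries already known, the near loss of Arl6ip1 transcripts among them. Those values are therefore given as a description, with no test. Transcript levels were measured by RNA-seq of total RNA in 2 groups of 3 libraries. KO is a derivative of DC2.4 in which Cd274, the gene for the checkpoint ligand PD-L1, is knocked out. Control is labelled as a control of DC2.4, an immortalised mouse dendritic cell line. No drug treatment is named for either group. The labels do not say how the knockout was made, whether the KO line is 1 clone, or whether each library had a culture of its own, so that the spread between libraries may be technical. In bulk RNA, fewer cells that express a gene and less of its RNA per cell cannot be told apart.

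The ER is a continuous membrane of flat sheets and branching tubules. Reticulons, REEP proteins and Arl6ip1 insert hydrophobic hairpins into the outer leaflet of the membrane and so bend it into tubules and sheet edges. Atlastins are membrane-bound GTPases that fuse tubules with one another and so make the junctions of the network. Proteins of these families, among them human ARL6IP1, are mutated in hereditary spastic paraplegia, a disease of long motor axons whose ER network is extensive.

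By the total of each column, the KO libraries held 13501776, 16323812 and 21133688 counts, and the Control libraries 10918498, 15909256 and 23250065. Of 11453 genes with enough counts to be tested, 25.3% passed edgeR's quasi-likelihood test at a Benjamini-Hochberg adjusted p under 0.05, 11.8% as higher and 13.5% as lower in KO. Groups did not overlap for 43% of the genes. Cd274 was not lower in KO (7.08 ± 1.44 CPM in KO and 5.78 ± 1.09 CPM in Control, SD, n = 3 each; edgeR adjusted p = 0.415), so its transcript level does not check the KO label. Summed dendritic cell and macrophage markers were at 1404 to 1607 CPM in KO and 1383 to 1492 CPM in Control. Within the sum, Ptprc, Itgam and Csf1r were lower in every KO library than in any Control library, and Fcer1g was higher. Csf1r was at 126 to 165 CPM in KO and 199 to 282 CPM in Control. Fcer1g was at 315 to 481 CPM in KO and 218 to 241 CPM in Control. Flt3, the receptor of a dendritic cell growth factor, was at 0 or 1 counts in every library. The class II gene H2-Ab1 had 0 counts in every library except Control 2, which had 4. Control 2 also stood apart by Col1a1 and Fn1 of the stromal list, with 2235 and 1382 counts, against at most 5 of either in the others. The rest of that list did not follow, with 22 counts of Col1a2, 10 of Col3a1 and 0 of Dcn, Lum and Pdgfra in Control 2. Lymphocyte markers summed to at most 0.755 CPM in KO and 0.895 CPM in Control, and epithelial and endothelial markers to at most 0.739 CPM in KO and 0.593 CPM in Control. Neuronal and glial markers summed to 33.1 to 39.3 CPM in KO and 47.8 to 57.9 CPM in Control, nearly all of it Mbp, with the neuronal genes Snap25 and Syt1 at 0 in every library. Among called genes, KO 1 was the KO library nearest the Control mean for 68.9%, against 53.7% of all tested genes.

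Arl6ip1, a hairpin protein of ER tubules first named as a binding partner of the small GTPase Arl6, had almost no transcripts in KO. It is at chr7:118118891-118129662 (mm10, minus strand, ENSMUSG00000030654.9). Its counts were 13, 19 and 37 in the KO libraries and 535, 920 and 1487 in the Control libraries. In CPM, counts scaled to a common library size with TMM normalisation factors, its level was 0.981, 1.28 and 1.84 CPM in KO 1, 2 and 3 and 47.9, 54.5 and 59.4 CPM in Control 1, 2 and 3. All KO libraries were far below all Control libraries, and the groups did not overlap. The means were 1.37 ± 0.437 CPM in KO and 53.9 ± 5.79 CPM in Control (SD, n = 3 each), a log2 fold change of -5.26 (SE 0.22). Summed over libraries and scaled by depth, Control held 38.8 times as many counts as KO, from 69 counts in KO and 2942 in Control. The 95% counting interval, 30.5 to 49.9, covers counting error only and leaves out the spread between libraries. The remaining counts lay in all 3 KO libraries. Of all tested genes, 40 had a lower log2 fold change.

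No other gene of the annotation shares a stretch of at least 100 bases at 90% identity with Arl6ip1 transcripts, and none overlaps it. Its promoter is shown because this gene carries the largest change of the 8, with those of Rtn3 and Atl3, which lie beside each other on chromosome 19 in opposite directions with starts 10758 bases apart and had unlike values in KO. Each sequence is a 300 base window from RefSeq (GRCm38.p6), 250 bases before to 50 after the start, written 5′ to 3′ on the gene's strand. The windows are chr7:118129576-118129875 (minus strand) for Arl6ip1, chr19:7483242-7483541 (minus strand) for Rtn3 and chr19:7494188-7494487 (plus strand) for Atl3. Capitals mark every match, on either strand, to the motifs listed after them.
Arl6ip1: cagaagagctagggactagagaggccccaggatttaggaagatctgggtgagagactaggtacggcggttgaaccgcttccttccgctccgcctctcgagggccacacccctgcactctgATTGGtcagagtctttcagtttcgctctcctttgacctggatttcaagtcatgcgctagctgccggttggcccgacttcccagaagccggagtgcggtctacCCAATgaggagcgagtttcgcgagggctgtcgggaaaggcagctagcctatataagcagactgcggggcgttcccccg
Rtn3: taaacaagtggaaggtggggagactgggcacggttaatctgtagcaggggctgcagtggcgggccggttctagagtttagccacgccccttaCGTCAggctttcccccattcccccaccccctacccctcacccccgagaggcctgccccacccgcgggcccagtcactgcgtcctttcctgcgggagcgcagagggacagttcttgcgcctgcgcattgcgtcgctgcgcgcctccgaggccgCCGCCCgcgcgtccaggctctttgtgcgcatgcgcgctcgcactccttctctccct
Atl3: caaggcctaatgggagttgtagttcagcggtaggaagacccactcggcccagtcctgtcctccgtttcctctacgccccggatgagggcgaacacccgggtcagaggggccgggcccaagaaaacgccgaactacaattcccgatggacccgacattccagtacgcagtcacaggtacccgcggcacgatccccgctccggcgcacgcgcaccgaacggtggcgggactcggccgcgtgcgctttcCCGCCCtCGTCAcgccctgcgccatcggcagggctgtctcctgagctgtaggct

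Motifs of ER stress and general promoter motifs were searched on both strands. The ER stress motifs were the ER stress response element ERSE (CCAAT, then 9 bases of any kind, then CCACG), which includes a CCAAT box, ERSE-II (ATTGG, then 1 base of any kind, then CCACG), which includes the reverse of one, and the core of the unfolded protein response element (TGACGTGG). The others were the cyclic AMP response element CRE (TGACGTCA), its shorter core (TGACG), which CRE and the unfolded protein response core both contain, the CCAAT box (CCAAT) and the GC box (GGGCGG). The Arl6ip1 window held 2 CCAAT boxes, one in each orientation, and no match to the other motifs. CCAAT occurs in 37.4% of the 32851 mouse promoter windows of this length. The Rtn3 and Atl3 windows each held 1 TGACG and 1 GC box, found in 20.8% and 35.7% of all windows. ERSE (0.119% of all windows), ERSE-II (0.0365%), the unfolded protein response core (0.676%) and CRE (1.79%) had 0 matches in the 10 windows that RefSeq gave for 6 of the 8 genes. The windows of Arl6ip1, Rtn3 and Atl3 held 19, 27 and 33 CpG dinucleotides, against a median of 7 over all windows. Fewer were held by 71.9%, 84.5% and 91.4% of all windows, in that order.

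The genes that flank Arl6ip1 had levels of their own, and were looked up after the Arl6ip1 values were seen. Smg1, the kinase that starts nonsense-mediated decay of mRNA, lies 1645 bases from Arl6ip1. It had 127, 66.2 and 72.9 CPM in KO 1, 2 and 3 and 234, 288 and 189 CPM in Control 1, 2 and 3, without overlap. Its log2 fold change was -1.42 (SE 0.25, edgeR's quasi-likelihood test with Benjamini-Hochberg adjustment, adjusted p = 0.00586). It was -0.73 (edgeR adjusted p = 0.00916) with length and GC trends removed, still past the threshold. Rps15a, a protein of the small ribosomal subunit on the other side, 2702 bases away, had 485, 661 and 439 CPM in KO and 376, 357 and 354 CPM in Control, again without overlap and in the other direction. Its log2 fold change was 0.54 (SE 0.16, edgeR adjusted p = 0.0371), and it missed the threshold when KO 2 (adjusted p = 0.125) or any Control library was left out (0.0685, 0.139 and 0.0969 without Control 1, 2 and 3) and under scaling by total counts alone (0.0795).

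The genes whose pattern over the 6 libraries was most like that of Arl6ip1, by the root mean square difference of centred log2 CPM, were Itga6 (0.19), Sh3kbp1 (0.34), Sgk3 (0.34), Rnf144b (0.39) and Rcsd1 (0.41). Itga6, an integrin chain, had 0.453, 0.403 and 0.597 CPM in KO and 22.5, 24.4 and 22.5 CPM in Control. Sh3kbp1, an adaptor of receptor endocytosis, had 0.981, 1.21 and 1.39 CPM in KO and 47.5, 34.3 and 32.7 CPM in Control. Both lay at a small share of their Control level in every KO library, which follows from their choice by likeness to Arl6ip1.

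**Figure D1:**
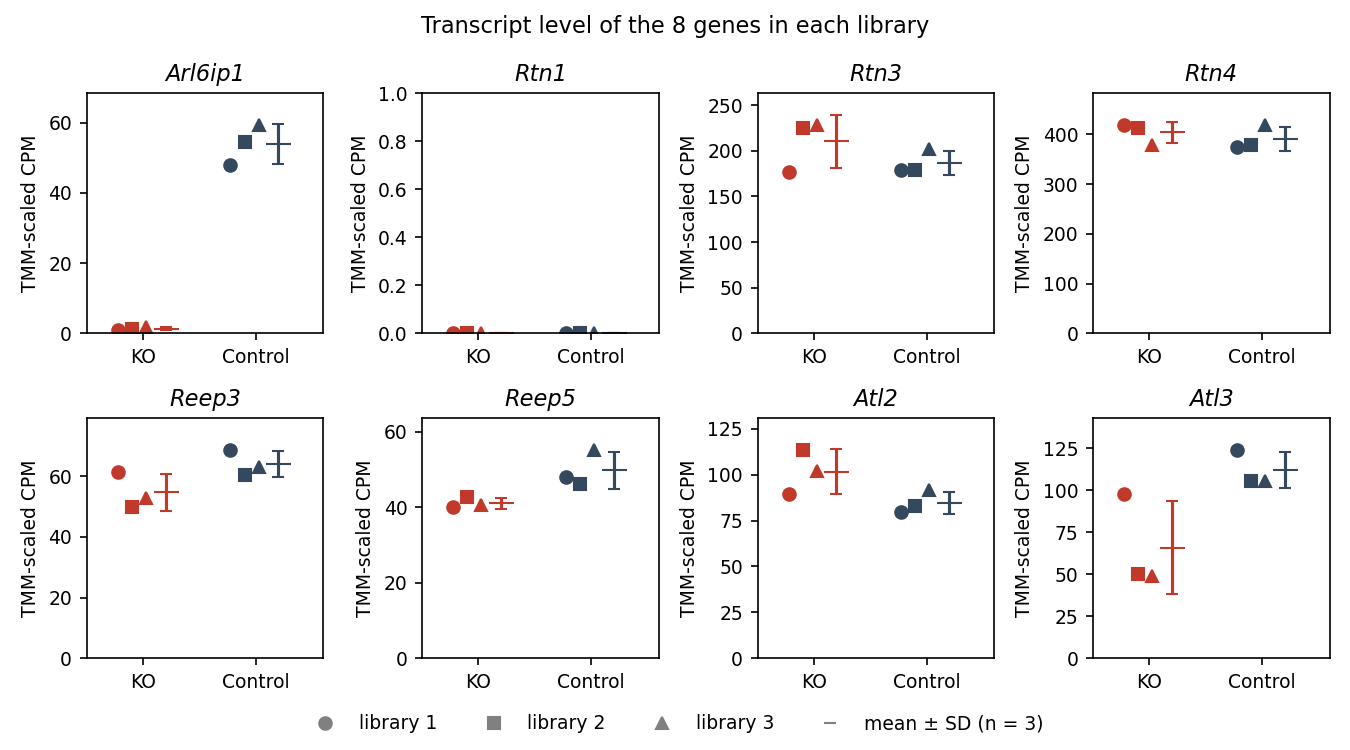
TMM-scaled CPM of each of the 8 genes (y axis, one scale per gene) in the KO and Control libraries (x axis). Points are libraries, and the bar with whiskers is the mean ± SD of 3. Arl6ip1 lies at 1.37 ± 0.437 CPM in KO and 53.9 ± 5.79 CPM in Control, Rtn1 at 0 throughout, and KO 1 is above the other KO libraries for Atl3.

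Rtn3 and Rtn4 had KO and Control libraries at overlapping levels. Rtn3 (ENSMUSG00000024758.15, chr19:7425901-7483281, mm10, minus strand), whose long isoform is also a receptor for the autophagy of ER tubules in human and mouse cells, had 177, 225 and 228 CPM in KO and 179, 179 and 202 CPM in Control. KO 1 was at the level of Control 1 and 2, and the groups overlapped. The means were 210 ± 28.6 CPM in KO and 187 ± 13.5 CPM in Control (SD, n = 3 each), with a log2 fold change of 0.17 (SE 0.14).

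Rtn4 (ENSMUSG00000020458.16, chr11:29692947-29744331, mm10, plus strand), known as Nogo for the inhibition of axon growth by its longest isoform, had 419, 413 and 379 CPM in KO and 374, 379 and 418 CPM in Control. The ranges of the groups almost coincided. Its log2 fold change was 0.05 (SE 0.12), and -0.11 under scaling by total counts alone, a scaling that put the median of all genes at -0.14, against 0.01 with TMM. Reads per gene do not separate the Rtn3 and Rtn4 isoforms. Rtn4 overlaps Eml6 on the other strand, where Eml6 had 6.09 ± 1.33 CPM in KO and 9.37 ± 1.85 CPM in Control (SD, n = 3 each). Whether the counting used strand is not given in the sources used here.

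Rtn1 (ENSMUSG00000021087.18, chr12:72211752-72409054, mm10, minus strand), best known from neurons and neuroendocrine cells, had 0 counts in all 6 libraries. A count of 0 allows up to 3 counts, or 0.226, 0.201 and 0.149 CPM in KO 1, 2 and 3 and 0.268, 0.178 and 0.120 CPM in Control 1, 2 and 3, for counting error only. Rtn1 was the single gene of the 8 that did not pass the filter on low counts.

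Reep5 and Reep3 had lower means in KO than in Control. Another gene of the family, Reep4, was at 98.1 ± 8.28 CPM in KO and 86.3 ± 0.945 CPM in Control (SD, n = 3 each), and did not pass edgeR's quasi-likelihood test (adjusted p = 0.28). Reep5 (ENSMUSG00000005873.6, chr18:34344885-34374070, mm10, minus strand), a hairpin protein found along tubules in most cell types, had 40.0, 42.6 and 40.5 CPM in KO and 48.0, 46.1 and 55.3 CPM in Control. Every KO library was below every Control library, with a gap smaller than the SD within Control. The means were 41.1 ± 1.39 CPM in KO and 49.8 ± 4.89 CPM in Control (SD, n = 3 each), a log2 fold change of -0.28 (SE 0.13).

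Reep3 (ENSMUSG00000019873.8, chr10:67009189-67096945, mm10, minus strand), which in human cells keeps ER membrane off the chromosomes in mitosis, had 61.5, 49.8 and 52.7 CPM in KO and 68.8, 60.4 and 63.0 CPM in Control. KO 1 lay above the lowest Control library, so the groups overlapped. Its log2 fold change was -0.23 (SE 0.14). It was -0.06 once trends of each library with the length and GC content of exons were removed. Reep3 overlaps Jmjd1c and Gm31763 on the other strand, and Jmjd1c had 66.1 ± 26.6 CPM in KO and 124 ± 13.1 CPM in Control (SD, n = 3 each). The share of Jmjd1c reads counted for Reep3 was not tested.

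Atl3 had a lower mean in KO than in Control, and Atl2 a higher one. Atl1, the atlastin best known from neurons, had few counts, 23, 17 and 16 in KO and 9, 29 and 55 in Control. Atl3 (ENSMUSG00000024759.14, chr19:7494040-7539674, mm10, plus strand), which in human cells is also a receptor for the autophagy of tubules, had counts of 1297, 747 and 988 in KO and 1387, 1782 and 2643 in Control. Its level was 97.9, 50.2 and 49.1 CPM in KO 1, 2 and 3 and 124, 106 and 106 CPM in Control 1, 2 and 3. KO 2 and KO 3 lay far below Control, KO 1 lay just below it, and the groups did not overlap. The means were 65.7 ± 27.9 CPM in KO and 112 ± 10.7 CPM in Control (SD, n = 3 each), a log2 fold change of -0.77 (SE 0.25). Without KO 1 it was -1.17, and without KO 2 or KO 3 -0.61 and -0.59. Atl3 transcripts share stretches of 100 bases with 705 other genes at 90% identity and of 250 bases with 0, so reads from such short repeats may have been split among genes or dropped.

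Atl2 (ENSMUSG00000059811.13, chr17:79848390-79896123, mm10, minus strand), the atlastin that with Atl3 serves most cells outside the nervous system, had 89.3, 114 and 102 CPM in KO and 79.7, 83.0 and 91.5 CPM in Control. KO 2 and KO 3 were above all Control libraries and KO 1 was within their range. The means were 102 ± 12.2 CPM in KO and 84.8 ± 6.10 CPM in Control (SD, n = 3 each), with a log2 fold change of 0.26 (SE 0.14).

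The groups did not overlap for 3 of the 7 genes with counts (Arl6ip1, Reep5 and Atl3), beside 43% of all tested genes. The median log2 fold change of the 7 was -0.23 and that of all tested genes 0.01. Because the contrast was known when the genes were picked, nothing is read from this count or this median.

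Levels were compared between genes per kilobase of exon (CPM per kb), with all annotated exons of a gene merged. Rtn4 was the highest of the 8 in both groups, at 57.7 ± 3.07 CPM per kb in KO and 55.8 ± 3.42 in Control (SD, n = 3 each), and Rtn3 followed, at 41.9 ± 5.70 in KO and 37.2 ± 2.68 in Control. Arl6ip1 was the lowest of the 7 genes with counts in KO, at 0.550 ± 0.176 CPM per kb, but in Control it followed Rtn4 and Rtn3, at 21.7 ± 2.33. In KO, 10.8% of tested genes had a lower level per kb than Arl6ip1, against 79.4% in Control.

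The other genes were closer together. Reep5 was at 13.0 ± 0.442 CPM per kb in KO and 15.8 ± 1.55 in Control, and Atl2 at 10.3 ± 1.24 in KO and 8.61 ± 0.619 in Control. Reep3 was at 6.59 ± 0.734 CPM per kb in KO and 7.73 ± 0.517 in Control, and Atl3 at 6.51 ± 2.76 in KO and 11.1 ± 1.06 in Control. Neighbours in the order of levels had library values that overlapped only for Reep3 and Atl3 in KO and only for Atl2 and Reep3 in Control. Exon length includes exons of isoforms that these cells may not use, which lowers the level per kb of genes with many isoforms.

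**Figure D2:**
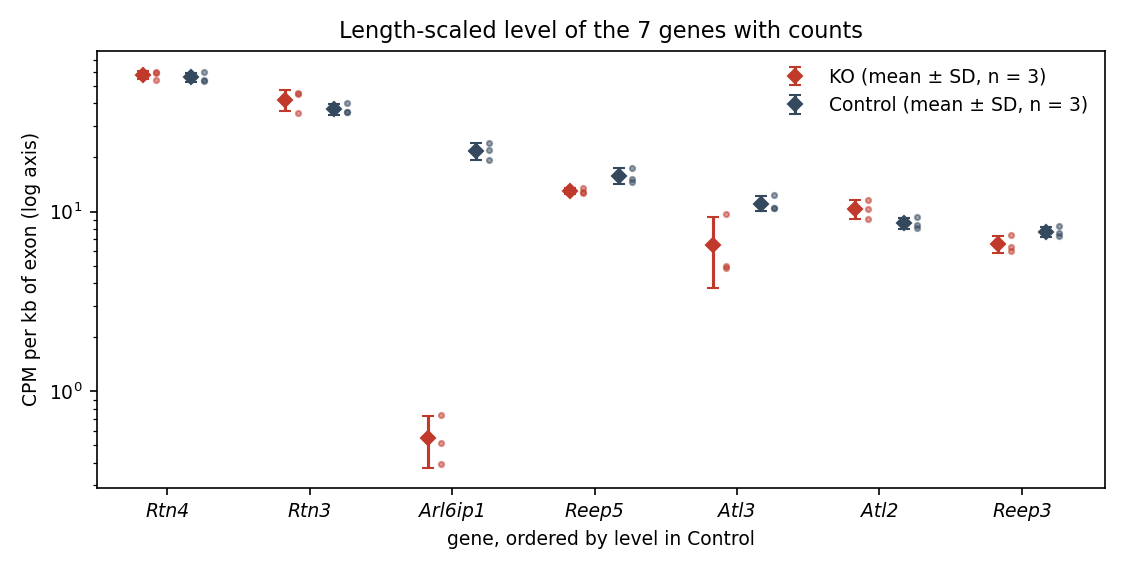
Level per kilobase of exon (CPM per kb, log axis) of the 7 genes with counts, ordered by their Control level. Diamonds with whiskers are the mean ± SD of 3 libraries and small circles the libraries. Arl6ip1 is at 0.550 in KO and 21.7 in Control, the other 6 genes differ far less between groups, and the KO libraries spread most for Atl3.

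Arl6ip1 made up 0.403% of the summed level per kb of the 8 genes in KO and 13.8% in Control. Rtn4 made up 42.3% of the sum in KO and 35.3% in Control, and Rtn3 30.6% in KO and 23.5% in Control. The sum itself was 134, 140 and 135 CPM per kb in KO and 152, 153 and 169 in Control. Without Arl6ip1 the sum was 134, 140 and 134 CPM per kb in KO and 133, 131 and 145 in Control, and the groups overlapped.

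Within families, the ratio of levels per kb of Atl3 to Atl2 was 1.07, 0.430 and 0.470 in KO 1, 2 and 3 and 1.52, 1.24 and 1.12 in Control 1, 2 and 3. Atl3 was thus above Atl2 in all Control libraries, and below it in KO 2 and KO 3. The ratio of Rtn3 to Rtn4 was 0.589, 0.759 and 0.839 in KO and 0.666, 0.656 and 0.674 in Control, with KO libraries on both sides of the narrow Control range. Reep5 to Reep3 was 1.71, 2.25 and 2.02 in KO and 1.83, 2.01 and 2.31 in Control, where the groups overlapped.

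Other genes of ER structure and function were counted in 5 lists with 84 genes, of which 82 were tested. The lists were written with earlier results of these data known, so their shares are given as a description. In KO, 22 of the 82 were higher (26.8%, beside 11.8% of all genes) and 3 lower (3.66%, beside 13.5%), by edgeR's quasi-likelihood test. Of the 22, 11 were in the unfolded protein response list. Groups did not overlap for 35 of the 82, beside 43% of all tested genes. Their median log2 fold change was 0.21, and 0.06 under scaling by total counts alone. Of the 25 called genes, KO 1 was the KO library nearest the Control mean for 18 (72%, near the 68.9% of all called genes).

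Of 19 tested genes of membrane curvature and the tubular network other than the 8, 4 were higher in KO and 0 lower. Their median log2 fold change was 0.03. The share higher was 21.1%, beside 11.8% of all genes. The share called in either direction, also 21.1%, was below the 25.3% of all genes. Arl6, the small GTPase that gave Arl6ip1 its name and that recruits the BBSome coat to cilia, had 18.9, 22.8 and 22.6 CPM in KO and 12.3, 11.4 and 13.2 CPM in Control. Arl6ip5, an ER protein of the PRA1 family that was also named for binding Arl6, had 147, 207 and 195 CPM in KO and 110, 100 and 112 CPM in Control. The groups overlapped for neither gene, and their log2 fold changes were 0.80 (SE 0.15, edgeR adjusted p = 0.00797) and 0.77 (SE 0.15, edgeR adjusted p = 0.00855). They were 0.55 for Arl6 and 0.41 for Arl6ip5 with length and GC trends removed (edgeR adjusted p = 0.0196 and 0.0269).

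Praf2, of the same family as Arl6ip5, was at 13.7 ± 2.02 CPM in KO and 8.23 ± 1.22 CPM in Control, a log2 fold change of 0.73 (SE 0.20, edgeR adjusted p = 0.025). Spast, the microtubule-severing ATPase that meets the ER through its hairpin, was at 70.7 ± 5.71 CPM in KO and 50.2 ± 2.57 CPM in Control, a log2 fold change of 0.49 (SE 0.13, edgeR adjusted p = 0.0219). All 4 missed the threshold without Control 2, with edgeR adjusted p = 0.0542 for Arl6, 0.0556 for Arl6ip5, 0.125 for Praf2 and 0.123 for Spast. Praf2 and Spast also missed it without KO 2 or KO 3 and under total counts alone (edgeR adjusted p = 0.0617 to 0.104), Spast without Control 3 (0.0592), and Praf2 with length and GC trends removed (0.161).

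In the list of ER sheet and rough ER proteins, 4 of 12 tested genes were higher in KO (33.3%, beside 11.8% of all genes) and 0 lower. Their median log2 fold change was 0.22. The share called in either direction was also 33.3%, beside 25.3% of all genes. Sec61b and Sec61g are the small subunits of the protein translocation channel. Sec61b had 127, 168 and 114 CPM in KO and 94.0, 61.2 and 60.5 CPM in Control, a log2 fold change of 0.93 (SE 0.21, edgeR adjusted p = 0.0138). Sec61g had 65.2, 89.3 and 55.9 CPM in KO and 49.8, 39.3 and 46.1 CPM in Control, a log2 fold change of 0.64 (SE 0.19, edgeR adjusted p = 0.0331).

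Ssr2, a subunit of the translocon-associated protein complex, had a log2 fold change of 0.76 (SE 0.20, edgeR adjusted p = 0.022). Tram1, a membrane protein beside the channel, had one of 0.60 (SE 0.17, edgeR adjusted p = 0.0272). For all 4 genes every KO library was above every Control library. None of the 4 passed without KO 2 or without Control 2 (edgeR adjusted p = 0.057 to 0.147), and Sec61b (0.0507), Sec61g (0.115) and Ssr2 (0.0788) did not with length and GC trends removed. Under total counts alone Tram1 (edgeR adjusted p = 0.0665) and Sec61g (0.071) missed the threshold. So did Tram1 without KO 3 (edgeR adjusted p = 0.1) or Control 1 (0.0739), Ssr2 without KO 3 (0.0836) or Control 3 (0.0615), and Sec61g without Control 1 (0.0506) or Control 3 (0.0738).

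Among ER-phagy receptors and genes of UFM1 conjugation, a ubiquitin-like modification at the ER, 2 of 10 tested genes were higher in KO and 0 lower. Their median log2 fold change was 0.18. The share higher was 20%, beside 11.8% of all genes. The share called in either direction, also 20%, was below the 25.3% of all genes. Retreg2, a reticulon-like ER-phagy receptor, had 109, 109 and 104 CPM in KO and 73.1, 79.3 and 76.6 CPM in Control (log2 fold change 0.49, SE 0.12, edgeR adjusted p = 0.0168). Cdk5rap3, a part of the UFM1 ligase, had 84.9, 78.6 and 71.7 CPM in KO and 56.9, 55.2 and 51.4 CPM in Control (0.52, SE 0.13, edgeR adjusted p = 0.018). Neither pair of groups overlapped. Both calls were lost under total counts alone (edgeR adjusted p = 0.0668 for Retreg2 and 0.0623 for Cdk5rap3), and without KO 2, Control 2 or Control 3 (0.0538 to 0.0863), and that of Retreg2 also without KO 3 (0.0546).

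Of 18 tested genes of ER contact sites, 1 was higher in KO (5.56%, beside 11.8% of all genes) and 3 were lower (16.7%, beside 13.5%), with a median log2 fold change of -0.17. The share called in either direction, 22.2%, was near the 25.3% of all genes. Vapa, the ER anchor for proteins that bridge to other membranes, had 345, 448 and 434 CPM in KO and 229, 233 and 249 CPM in Control (log2 fold change 0.79, SE 0.14, edgeR adjusted p = 0.00578). Stim1, the calcium sensor of the ER that opens channels of the plasma membrane, had 22.9, 19.8 and 26.3 CPM in KO and 36.8, 51.6 and 44.1 CPM in Control (-0.94, SE 0.17, edgeR adjusted p = 0.0062). The groups of neither gene overlapped. Stim1 missed the threshold with length and GC trends removed (edgeR adjusted p = 0.0514), under which the median of the list was 0.04.

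Vps13c and Vps13d, long lipid transfer proteins at contact sites, were lower as well. Vps13c had 209, 74.8 and 80.2 CPM in KO and 306, 375 and 256 CPM in Control (log2 fold change -1.37, SE 0.35, edgeR adjusted p = 0.0216). Vps13d had 45.6, 23.2 and 27.1 CPM in KO and 74.1, 84.4 and 51.4 CPM in Control (-1.13, SE 0.26, edgeR adjusted p = 0.0155). KO 1 was the highest KO library for both, as it was for Atl3, and without it the log2 fold change of Vps13c was -2.01. Neither passed without KO 2, KO 3 or Control 2 (edgeR adjusted p = 0.0613 to 0.0878), Vps13c missed without Control 1 (0.0562), and Vps13d missed with length and GC trends removed, where its log2 fold change was -0.34 (edgeR adjusted p = 0.0979).

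The unfolded protein response list holds ER chaperones, degradation factors and the sensors and transcription factors that control them. It had the largest share of calls among the lists. In KO, 11 of 23 tested genes were higher (47.8%, beside 11.8% of all genes) and 0 lower, with a median log2 fold change of 0.54. Calls in either direction made up 25.3% of all genes. Groups did not overlap for 10 of the 23, beside 43% of all tested genes. Among the 11 called genes, the groups of Manf, Hspa5 and Dnajb9 overlapped. The sensors Atf6, Ern1 and Eif2ak3 were not called, with log2 fold changes of -0.11, -0.31 and -0.05. Of the other transcription factors, Xbp1 was not called (log2 fold change 0.51), and Atf4 (0.59) and Ddit3 (1.67) were called higher. Ddit3 had 39.9, 13.6 and 16.5 CPM in KO and 6.98, 7.35 and 7.55 CPM in Control. For 9 of the 11 called genes (81.8%, beside 68.9% of all called genes), KO 1 was the KO library nearest the Control mean. Herpud1, which helps to degrade misfolded ER proteins, had 106, 111 and 115 CPM in KO and 43.5, 47.1 and 44.8 CPM in Control. Its log2 fold change was 1.29 (SE 0.12, edgeR adjusted p = 0.000227), and the libraries of each group lay close together.

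Dnajb11 and Sdf2l1 work together with the ER chaperone BiP, and Creld2 is a secreted ER protein induced by ER stress. Sdf2l1 had 190, 318 and 272 CPM in KO and 110, 117 and 115 CPM in Control (log2 fold change 1.19, SE 0.18, edgeR adjusted p = 0.00314). Creld2 had 83.6, 163 and 135 CPM in KO and 58.1, 56.1 and 53.2 CPM in Control (1.19, SE 0.22, edgeR adjusted p = 0.00629). Dnajb11 had 196, 295 and 282 CPM in KO and 149, 120 and 133 CPM in Control (0.94, SE 0.17, edgeR adjusted p = 0.00676). For these 3 genes KO 1 was the lowest KO library, still above every Control library.

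The calls of Herpud1, Sdf2l1, Creld2, Dnajb11 and Vapa held in all 15 alternative settings. Their log2 fold changes were smaller with length and GC trends removed, at 1.04, 0.77, 0.81, 0.79 and 0.64 in that order. The number of unfolded protein response genes called higher was 17 without KO 1, 6 without KO 2, KO 3 or Control 1, and 4 without Control 2. The loss of Arl6ip1 transcripts stood beside these values in the same libraries, and whether one bears on the other was not tested.

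**Figure D3:**
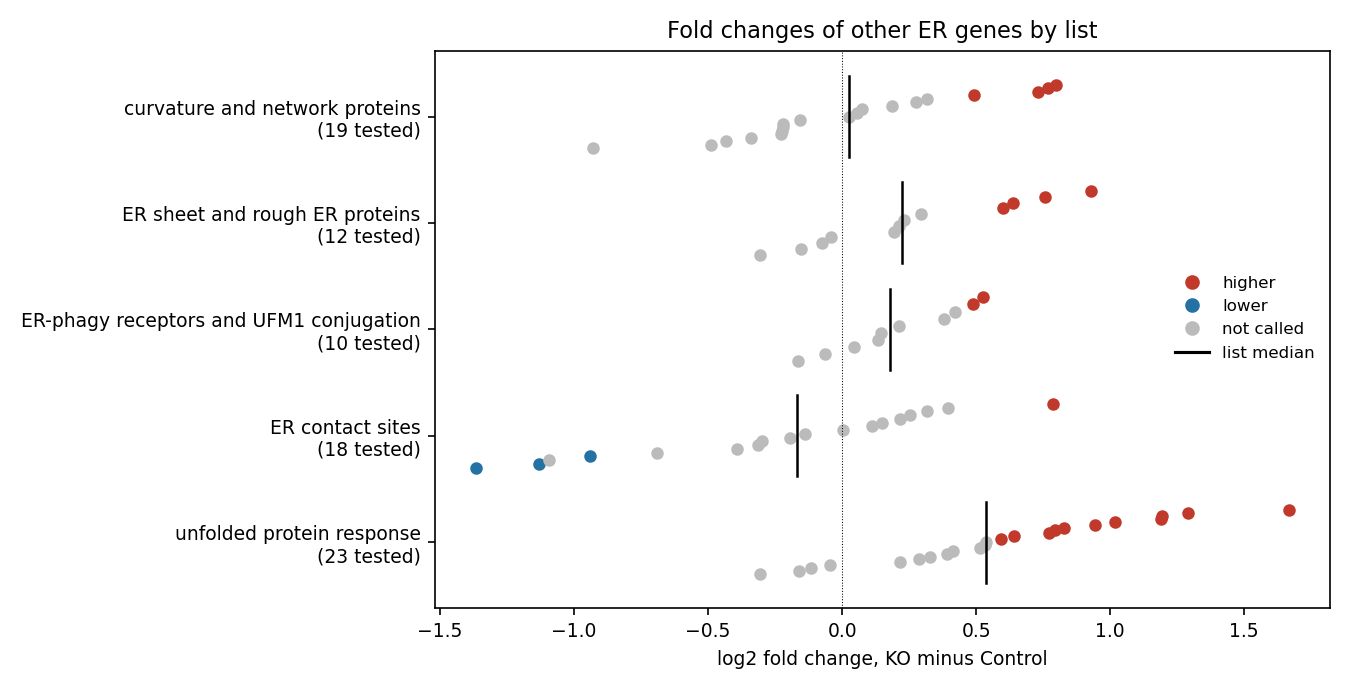
Log2 fold change, KO minus Control (x axis), of each of the 82 tested genes of 5 ER lists (rows). Colours give the call at an edgeR adjusted p under 0.05, and the black line is the list median. The unfolded protein response list has 11 genes higher and its median at 0.54, and 3 genes, all of contact sites, are lower.

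**Figure D4:**
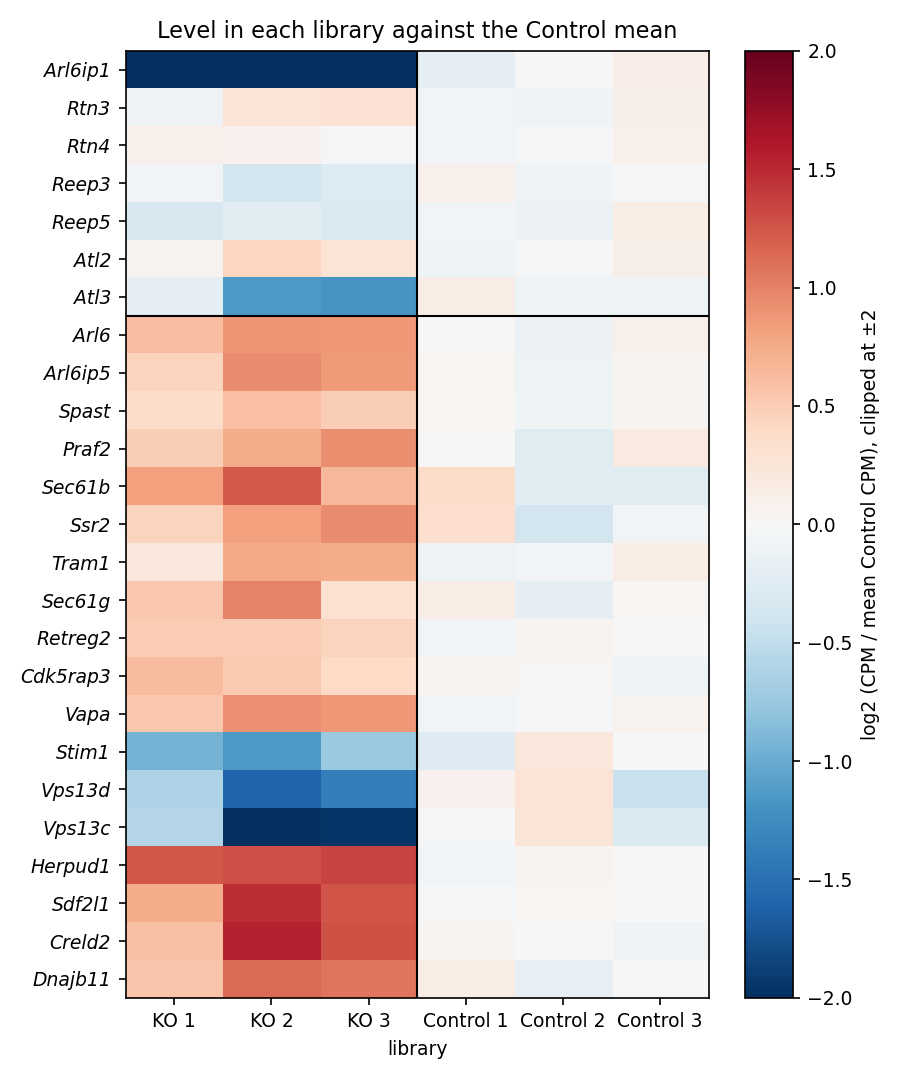
Log2 of each library's CPM over the Control mean (colour, clipped at ±2), for the 7 genes with counts (above the line) and the 18 named genes of the ER lists, with KO libraries on the left. Arl6ip1 is below the colour limit in every KO library, and Rtn3, Rtn4, Reep3, Reep5 and Atl2 are pale in every library. KO 1 is paler than KO 2 and KO 3 for Atl3, Vps13c and Vps13d.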

How the data were processed

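Libraries were made with KAPA Hyper Prep Kits from total RNA in TRIzol, per the labels' protocols. Tools named in the submitters' processing notes are Trimmomatic 0.39, STAR 2.7.5c and StringTie 2.1.7 with build mm10, without their roles. The authors deposited raw read counts for each gene, in whole numbers. Not given in the sources used here were the counting step, annotation and strand setting.

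From the counts, genes were filtered with edgeR's filterByExpr, scaled by TMM and tested in edgeR 4.0.16 (with limma 3.58.1 under R 4.3.3) by its quasi-likelihood F test (two-sided, Benjamini-Hochberg over all 11453 tested genes, threshold 0.05). The common biological coefficient of variation was 17.5%. Fold changes are KO minus Control. Each SE was worked back from the test's F statistic, as the size of the log2 fold change divided by the square root of F. The spread behind each p-value is that between these libraries. Intervals and floors for counts of 0 cover counting error only. No 2 libraries of a group agreed within sampling noise. The code was tested on simulated data.

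The 8 genes and the ER and marker lists were chosen with earlier results of these data known. All 8 genes and Cd274 are named whatever their values, with up to 4 called genes per ER list (non-overlapping groups, lowest adjusted p) and the 5 genes most like Arl6ip1, predicted genes left out. The genes flanking Arl6ip1 and those overlapping the 8 were added after values were seen. So were the other REEP genes and the sensors and transcription factors of the unfolded protein response list. Positions and exon lengths came from GENCODE release 21 for mouse (mm10). Copies were searched with BLAST 2.17.0 among its transcripts. Alternatives were limma-voom, the Wald test of DESeq2 1.42.0, its size factors, total counts alone, no filter on low counts, at least 1 CPM in 3 libraries, the replicate block, loess offsets for exon length and GC content (span 0.3; 98.6% of tested genes had both) with and without that block, and leaving out each library.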

Additional observations from a re-analysis of the deposited data

How the results depend on the processing

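The log2 fold changes of Arl6ip1 (-5.56 to -5.09 with 1 library left out), Rtn3 (0.11 to 0.28) and Atl3 (-1.17 to -0.59) moved by less than the spread between replicates in every other setting too. Under total counts alone the log2 fold changes were -0.11 for Rtn4 (0.05 with TMM), -0.38 for Reep3 (-0.23), -0.44 for Reep5 (-0.28) and 0.10 for Atl2 (0.26). With length and GC offsets, without and with the replicate block, they were 0.16 and 0.16 for Rtn4, -0.0618 and -0.0612 for Reep3, -0.45 and -0.45 for Reep5 and 0.48 and 0.48 for Atl2. Leaving out 1 library gave 0.02 to 0.10 for Rtn4, -0.32 to -0.17 for Reep3, -0.33 to -0.19 for Reep5 and 0.17 to 0.34 for Atl2. Of all genes, 1353 were called higher and 1543 lower. Total counts alone gave 667 higher, so that 23.2% of calls were higher, against 46.7% with TMM. Leaving out 1 library gave 166 (without Control 2) to 2346 (without KO 1) higher and 472 to 2616 lower for the same libraries, and 26% of calls were higher without Control 2. Of the ER list genes, 22 higher and 3 lower became 13 and 5 under total counts alone. The lower count was 5 with DESeq2's Wald test and 1 with length and GC offsets. Leaving out 1 library gave 5 to 31 higher and 1 to 9 lower. The replicate block gave 1480 genes higher and 1732 lower, and 23 and 4 of the ER list genes. Libraries of the same number had correlations of 0.15, -0.06 and 0.36 in their deviations from the group means. KO 1 and KO 3 correlated best with the Control library of their number, but KO 2 with Control 3 (0.11). Whether the numbers pair the libraries cannot be told from so few correlations. The cause of these shifts was not tested. Of the 18 ER list genes named by the rule of up to 4 called genes per list, 5 kept their call in all 15 alternatives. Among the fold changes of the 7 genes with counts and of these 18, only that of Rtn4 changed sign, under total counts alone. Depth limits Rtn1, at 0 counts, and Arl6ip1 in KO, at 13 to 37 counts a library.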
